A study of Mus musculus with 12 samples.

Results

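Inflammatory cytokines and inflammasome genes were followed across 4 groups of sorted mouse macrophages. The genes were chosen by name: Il1a, Il1b, Il1rn and Nlrp3 of the IL-1 axis, Tnf, the IL-6 family members Il6 and Osm, Ptgs2, Il10 and Il12b. These are 10 of the 46517 genes in the deposited count table. All 10 had counts and passed the filter on low counts, as did 14216 genes in all.

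The cells came from adult wild-type C57/BL6 mice, and the labels give no treatment and no age in numbers. Macrophages were gated as DAPI-negative CD45+, CD64+, MerTK+, CD11b+ and F4/80+ cells and split by surface LYVE-1, a hyaluronan receptor found on a subset of tissue macrophages. This gave LYVE1+ and LYVE1- cells of the aorta, drawn from 30 mice, and LYVE1+ and LYVE1- cells of epididymal and subcutaneous fat, drawn from 20 mice, with 3 libraries in each group. The cells were pooled over animals, and the labels do not say which animals went into which library, so the p-values below measure the spread between these libraries, which may be technical.

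The IL-1 pathway begins with the cytokines IL-1 alpha and IL-1 beta, and the receptor antagonist encoded by Il1rn blocks their receptor. NLRP3 is the sensor of an inflammasome, a complex that activates caspase-1, which cleaves IL-1 beta and opens the way to its release. TNF, IL-6 and prostaglandins made by the cyclooxygenase PTGS2 act in the same early response, IL-10 restrains it, and the p40 chain encoded by Il12b is shared by IL-12 and IL-23. Macrophages are a main source of these mediators, and many of the genes are induced through NF-kB.

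Library totals ran from 12792058 to 29792301 counts in the aorta and from 5049936 to 12033475 in fat. Levels are given as CPM, counts scaled to a library of 1000000 counts. Macrophage transcripts were present in every library, with Csf1r, the receptor for the growth factor CSF1, at 2780 to 6660 CPM and Adgre1, which encodes F4/80, at 864 to 1760 CPM. Lyve1 itself ranged over 2130 to 2790 CPM (LYVE1+) against 876 to 1310 CPM (LYVE1-) among aortic libraries, and over 1540 to 2100 against 233 to 606 CPM among fat libraries. Both fat libraries numbered 1 stood apart: mitochondrial transcripts made up 8.85% (LYVE1+) and 12.1% (LYVE1-) of their counts, against 1.79% to 3.2% in the others, and erythroid markers reached 26000 and 5270 CPM. In the aorta, LYVE1+ libraries 1 and 2 carry identifiers that begin with RMM, as all fat libraries do, while aorta LYVE1+ library 3 and the aorta LYVE1- libraries begin with RHH. What the prefix stands for is not given in the sources used here. Aorta LYVE1+ is the only group with both prefixes, so a model term for the prefix rests on its library 3 against its libraries 1 and 2.

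Il1rn, Ptgs2 and Il12b are shown first by sequence, since they were the members called different between the sorts in fat. Each line holds the 150 bases before the gene's start in RefSeq (build GRCm38.p6, plus strand), and capitals mark a match to a searched motif. The stretches lie at chr2:24336710-24336859 for the first of the 3 Il1rn starts listed, chr1:150099881-150100030 for Ptgs2 and chr11:44399913-44400062 for Il12b.
Il1rn: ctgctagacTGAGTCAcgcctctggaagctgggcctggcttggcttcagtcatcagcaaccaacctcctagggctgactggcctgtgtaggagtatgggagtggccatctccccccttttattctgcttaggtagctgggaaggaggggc
Ptgs2: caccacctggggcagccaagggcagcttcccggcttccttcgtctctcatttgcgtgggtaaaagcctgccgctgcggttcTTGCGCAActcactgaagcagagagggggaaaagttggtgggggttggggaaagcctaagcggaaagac
Il12b: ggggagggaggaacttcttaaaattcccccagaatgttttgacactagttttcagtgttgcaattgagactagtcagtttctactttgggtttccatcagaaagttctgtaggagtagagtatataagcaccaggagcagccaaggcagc
The capitals in Il1rn are an AP-1 motif (TGANTCA) that begins 141 bases before the start, and those in Ptgs2 a C/EBP motif (TTGCNNAA) that begins 69 bases before it. No motif of the search was matched in the Il12b stretch.

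RefSeq promoters, from 250 bases before to 50 bases after a start, were matched for 8 of the 10 members, in 11 windows. Osm and Il10 had no entry. Both strands were searched, and overlapping matches were all kept. The kappaB motif was matched in the windows of Il6 (44 bases before the start) and Nlrp3 (186 bases before), against 8.46% of the 32851 windows of all genes. AP-1 was matched in Il1a, Il1rn and Il6 (7.81% of all windows), C/EBP in Il6 and Ptgs2 (10.8%) and TATAAA in Il1a, Il1b, Il1rn and Tnf (13.6%). The TATAAA matches of Il1a, Il1b and Tnf began 32, 31 and 29 bases before the start. The CRE (TGACGTCA, 1.79% of all windows) and the ISRE core (GAAANNGAA, 8.56%) were matched in none of the 11. A match describes letters in the window and does not show a bound site.

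**Figure D1:**
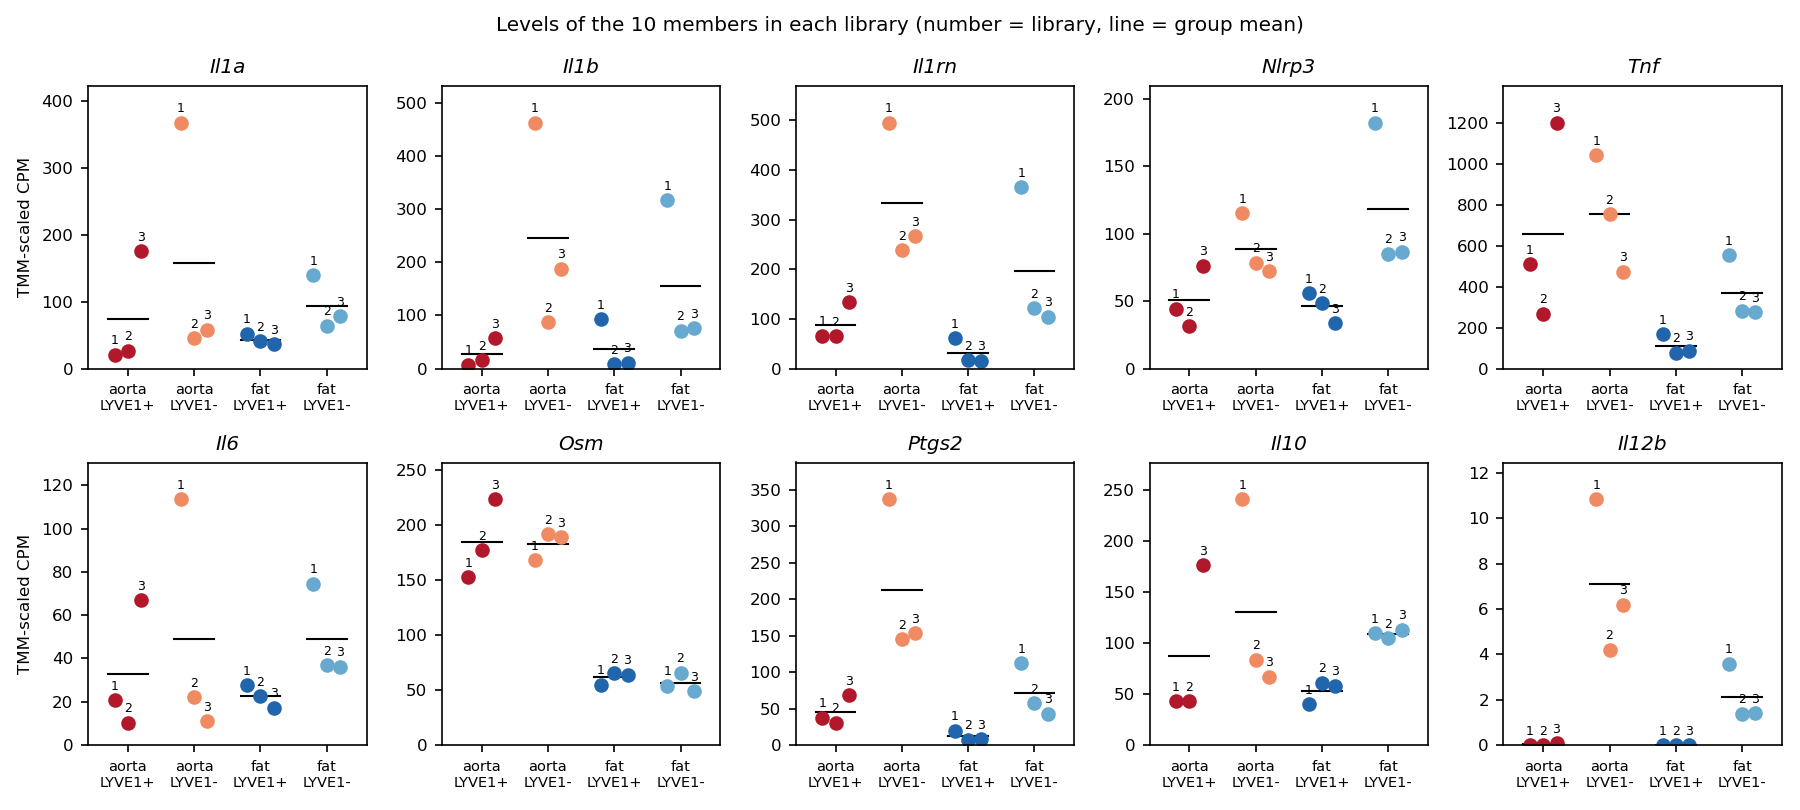
TMM-scaled CPM (linear axes from 0) of each member in the 12 libraries, by tissue and sort, with the library number beside each point and a line at the group mean (n = 3). Il12b is at or near 0 in all LYVE1+ libraries, Osm separates the tissues and not the sorts, and library 3 of aorta LYVE1+ and library 1 of the other groups are the highest for most members.

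Levels of genes below are CPM scaled with TMM factors, except that levels and sums of cell type and stress markers are plain CPM. A call is an edgeR quasi-likelihood test with a Benjamini-Hochberg adjusted p under 0.05 over all 14216 genes. In LYVE1+ against LYVE1- cells, 1 of the 10 members was called lower in the aorta (Il12b), where 0.429% of all genes tested were called lower. In fat 3 were called lower (Il1rn, Ptgs2 and Il12b), where 2.1% of all genes were. Il12b had 1 count in the aorta LYVE1+ and 0 in the fat LYVE1+ libraries. It passed the filter on low counts only through LYVE1- libraries, so lower in LYVE1+ cells was the only direction open to it. None was called higher in either tissue, against 0.113% of all genes in the aorta and 1.82% in fat. The fitted log2 fold change was negative for 9 of 10 members in each tissue, with Osm as the exception, against 51.4% of all genes in the aorta and 49.4% in fat. Its median over the members was -0.94 in the aorta and -1.55 in fat, beside -0.013 and 0.005 over all genes. Lyve1 itself was called higher in the LYVE1+ cells of fat (adjusted p = 0.00383, edgeR) and was not called in the aorta (0.108, edgeR).

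Among the agonists of the IL-1 receptor, Il1b (chromosome 2, 129364570 to 129371139, GRCm38) had 6.92, 15.63 and 57.06 CPM in aorta LYVE1+ libraries 1 to 3 and 462.9, 87.33 and 187.8 CPM in the aorta LYVE1- libraries. The groups do not overlap, but the libraries within each differ several-fold. The log2 fold change was -3.22 (SE 1.04) and was not called (adjusted p = 0.251, edgeR). In fat, Il1b had 93.09, 8.32 and 10.89 CPM in LYVE1+ and 317.6, 70.86 and 76.06 CPM in LYVE1- libraries. LYVE1+ library 1 lay within the range of the LYVE1- libraries, and the log2 fold change of -2.09 (SE 1.01) was not called (adjusted p = 0.345, edgeR). Without that library it was -4.01 and called (adjusted p = 0.0323, edgeR). The adjusted p ranged from 0.0323 to 0.722 over the 12 fits that each left out 1 library.

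Il1a, the other agonist (chromosome 2, 129299610 to 129309972), overlapped between the aortic sorts. It had 20.41, 26.76 and 174.9 CPM in aorta LYVE1+ and 366.9, 45.55 and 58.11 CPM in aorta LYVE1- libraries, a log2 fold change of -1.08 (SE 0.82, adjusted p = 0.669, edgeR). In fat the LYVE1+ libraries had 51.82, 41.16 and 36.39 CPM and the LYVE1- libraries 139.3, 64.08 and 78.55 CPM. These do not overlap, and the log2 fold change was -1.13 (SE 0.835, adjusted p = 0.583, edgeR). Exons of Il1a and Il1b overlap those of Gm14023 and Il1bos on the opposite strand, and no strand setting of the counting is given, so reads of the overlapping parts may belong to either gene. The same holds for other genes described below whose exons overlap an exon on the opposite strand, namely Myd88, Txnip, Pycard, Tnfsf9, Ikbke, Pim1, Ptger2, Ltc4s, Ebi3, Il4ra and Irf1. Gm14023 was counted 9 to 198 times and Il1bos 0 to 44 times per library.

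Il1rn, the receptor antagonist (chromosome 2, 24336853 to 24351494), was lower in the LYVE1+ cells of fat. It had 60.85, 16.81 and 16.13 CPM in fat LYVE1+ and 364.5, 121.7 and 104.1 CPM in fat LYVE1- libraries. Every LYVE1+ library was below every LYVE1- library, and library 1 was the highest of both sorts. The LYVE1+ level was 6.44-fold lower, a log2 difference of -2.69 (SE 0.605, adjusted p = 0.0256, edgeR). The call was lost without fat LYVE1+ library 2 (adjusted p = 0.119) or 3 (0.121), without fat LYVE1- library 1 (0.0876), and in an edgeR fit of the fat libraries alone (0.105). Leaving out the other libraries gave 0.00271 to 0.0386. The log2 value moved to -3.57 when fat LYVE1+ library 1 was omitted and to -1.90 when fat LYVE1- library 1 was. With both fat libraries numbered 1 left out together it stood (-2.78, adjusted p = 0.000999, edgeR). In the aorta the values were 66.1, 65.62 and 133.3 CPM against 494.6, 238.6 and 266.5 CPM, again without overlap, and the log2 fold change of -1.92 (SE 0.576) was not called (adjusted p = 0.207, edgeR).

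Around these 3 genes, a list of the IL-1 family, its receptors and regulators had 27 names, of which 23 were in the table and 21 were tested, the 3 members included. None was called in the aorta. In fat 2 were called, both lower in LYVE1+ cells: Il1rn and Il1rl1, the receptor for IL-33. Il1rl1 averaged 33.02 ± 7.23 CPM (SD over 3 libraries, as throughout) in the LYVE1+ and 73.85 ± 3.43 CPM in the LYVE1- sort of fat, a log2 fold change of -1.17 (SE 0.17, adjusted p = 0.00214, edgeR), which was called in every alternative fit, with adjusted p from 0.000807 to 0.0125 over the fits that left out 1 library.

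Nlrp3 (chromosome 11, 59541568 to 59566956) had 44.43, 31.49 and 76.13 CPM in aorta LYVE1+ and 115.1, 78.41 and 72.14 CPM in aorta LYVE1- libraries. LYVE1+ library 3 lay within the LYVE1- range, and the log2 fold change was -0.80 (SE 0.354, adjusted p = 0.412, edgeR). In fat it had 55.85, 48.62 and 33.56 CPM against 182.1, 84.99 and 86.71 CPM, with no overlap and a log2 fold change of -1.36 (SE 0.362, adjusted p = 0.057, edgeR). The labels do not state that the library numbers pair the fat samples. If they are taken to do so, with the number as a block, Nlrp3 was called (-1.29, adjusted p = 0.0233, edgeR). The list of inflammasome and pyroptosis genes held 26 names, 24 of them tested. It had no call in the aorta and 2 in fat, both higher in LYVE1+ cells. They were Ninj1, which encodes the membrane protein that ruptures dying cells, and Txnip, the thioredoxin-interacting protein. Ninj1 stood at 1525 ± 294 against 487.4 ± 143 CPM (log2 fold change 1.65, SE 0.246, adjusted p = 0.00249, edgeR) and was called in every alternative. Txnip stood at 841.6 ± 155 against 480.7 ± 68.6 CPM (0.81, SE 0.202, adjusted p = 0.0424, edgeR), a call lost in 10 of 12 fits that left out 1 library (adjusted p 0.0116 to 0.213).

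Tnf (chromosome 17, 35199381 to 35202007) did not separate the aortic sorts. It had 507.8, 267.4 and 1199 CPM in aorta LYVE1+ and 1040, 752.4 and 471.7 CPM in aorta LYVE1- libraries. The highest library of all 12 was LYVE1+, and the log2 fold change was -0.20 (SE 0.49, adjusted p = 0.924, edgeR). In fat it had 168.1, 76.95 and 87.29 CPM in LYVE1+ and 553.5, 283.1 and 273.8 CPM in LYVE1- libraries. The fat groups do not overlap, with a log2 fold change of -1.75 (SE 0.508) that was not called (adjusted p = 0.0816, edgeR). With the library number as a block it was called (-1.75, adjusted p = 0.037, edgeR). In all, 5 members were called lower in fat with the block, in place of 3, while the calls over all genes went from 558 to 915.

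The list of TNF, its receptors and its processing held 31 genes, all tested. None was called between the aortic sorts, and 1 was called in fat: Tnfsf9, which encodes the ligand of the costimulatory receptor 4-1BB. It had 90.4, 90.56 and 91.52 CPM in fat LYVE1+ and 295.8, 249.8 and 248.6 CPM in fat LYVE1- libraries (log2 fold change -1.54, SE 0.324, adjusted p = 0.0183, edgeR). The call was lost without fat LYVE1+ library 2 (0.0815) or 3 (0.0802). Of 19 NF-kB subunits, inhibitors and kinases, all tested, none was called in either tissue. Their log2 fold changes were negative for 19 of 19 in the aorta (median -0.36) and for 15 of 19 in fat (median -0.30).

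Il6 (chromosome 5, 30013114 to 30019981), the cytokine that signals through gp130, had 20.61, 10.3 and 66.88 CPM in aorta LYVE1+ and 113.5, 22.22 and 10.87 CPM in aorta LYVE1- libraries. The aortic groups overlapped throughout, with a log2 fold change of -0.58 (SE 0.751, adjusted p = 0.824, edgeR). In fat it had 27.64, 22.62 and 17.24 CPM against 74.47, 36.8 and 36.14 CPM. These groups do not overlap, and the log2 fold change of -1.13 (SE 0.775) was not called (adjusted p = 0.545, edgeR).

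Osm (chromosome 11, 4236420 to 4241026), which encodes oncostatin M of the same family, varied little within each group. Its levels were 152.4, 176.9 and 223.3 CPM in aorta LYVE1+, 167.8, 191.6 and 188.7 CPM in aorta LYVE1-, 54.89, 65.34 and 63.9 CPM in fat LYVE1+ and 54, 65.85 and 48.68 CPM in fat LYVE1- libraries. The sorts overlapped in both tissues, and the tissues did not overlap in either sort. The ratio of LYVE1+ to LYVE1- cells was 1.01 in the aorta, with a 95% interval of 0.789 to 1.29, and 1.09 in fat, with an interval of 0.852 to 1.4. The IL-6 family list held 22 genes, 18 of them tested, with 1 call in the aorta and none in fat. The call was Pim1, a kinase induced by STAT signals, at 103.3 ± 18.9 CPM in LYVE1+ and 196.3 ± 29 CPM in LYVE1- cells, a log2 difference of -0.93 (SE 0.184, adjusted p = 0.0482, edgeR). It was lost in 10 of 12 fits that left out 1 library (adjusted p 0.0169 to 0.256), with plain library sizes (0.07), with the prefix in the model (0.732) and without aorta LYVE1+ library 3 and aorta LYVE1- library 1 (0.388).

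Ptgs2 (chromosome 1, 150100031 to 150108227), the inducible cyclooxygenase, was lower in the LYVE1+ cells of fat. It had 19.77, 7.37 and 8.16 CPM in fat LYVE1+ and 112.3, 57.71 and 42.81 CPM in fat LYVE1- libraries. The highest LYVE1+ library was below the lowest LYVE1- library. The LYVE1+ level was 6.26-fold lower, a log2 difference of -2.65 (SE 0.507, adjusted p = 0.0107, edgeR). The call was lost without fat LYVE1+ library 2 (0.0674) or 3 (0.0688) and held in the other 10 such fits (adjusted p from 0.00301), with log2 values of -3.18 to -2.16 over all 12. In the aorta the values were 37.56, 30.67 and 68.38 CPM against 337.2, 145.6 and 153.6 CPM, also without overlap. The log2 fold change there was -2.22 (SE 0.473) and just missed the threshold (adjusted p = 0.0625, edgeR). DESeq2 called it (-2.23, adjusted p = 0.00714).

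The list of prostaglandin and leukotriene synthesis and receptors held 29 genes, 25 of them tested, and its calls went both ways. In fat, Ltc4s, the synthase of leukotriene C4, was higher in LYVE1+ cells (239.9 ± 51.2 against 65.17 ± 33.8 CPM, log2 fold change 1.88, SE 0.349, adjusted p = 0.00905, edgeR). It was called in each fit that left out 1 library (0.00411 to 0.0452) and not in a fit of the fat libraries alone (0.072). Hpgds, a synthase of prostaglandin D2, was higher as well (121.7 ± 49.6 against 58.84 ± 7.89 CPM, 1.05, SE 0.262, adjusted p = 0.042, edgeR), but 1 LYVE1+ library lay within the LYVE1- range and the call was lost in 11 of 12 such fits. In the aorta the call was Ptger2, a receptor for prostaglandin E2, at 0.8778 ± 0.214 CPM in LYVE1+ and 14.34 ± 15.1 CPM in LYVE1- cells (-3.99, SE 0.667, adjusted p = 0.018, edgeR). It was lost without any 1 of the 3 aorta LYVE1+ libraries (0.113, 0.0776 and 0.105), with the prefix in the model (0.556) and without aorta LYVE1+ library 3 and aorta LYVE1- library 1 (0.128, log2 value -2.63). Without aorta LYVE1- library 1 alone the value was -2.65 and still called (0.0178, edgeR).

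Il10 (chromosome 1, 131019845 to 131024974), the restraining cytokine, had 42.78, 43.07 and 176 CPM in aorta LYVE1+ and 240.5, 83.64 and 66.86 CPM in aorta LYVE1- libraries. LYVE1+ library 3 was above 2 of the 3 LYVE1- libraries, and the log2 fold change was -0.58 (SE 0.532, adjusted p = 0.737, edgeR). In fat it had 39.92, 61.01 and 58.16 CPM against 109.5, 104.7 and 112.7 CPM. The fat LYVE1- libraries were nearly equal and all above the LYVE1+ libraries, with a log2 fold change of -1.03 (SE 0.543) that was not called (adjusted p = 0.401, edgeR). In a fit of the fat libraries alone it was called (adjusted p = 0.045, edgeR). The list of the IL-10 family, receptors and regulatory cytokines held 22 genes, 18 tested. In the aorta Prdm1, the repressor BLIMP-1, was lower in LYVE1+ cells, at 3.36, 3.683 and 12.88 CPM against 54.77, 34.83 and 35.77 CPM (-2.66, SE 0.47, adjusted p = 0.026, edgeR). That call was lost without aorta LYVE1+ library 1 (0.151) or 2 (0.0868) or aorta LYVE1- library 1 (0.132) or 3 (0.066), and with the prefix in the model (0.485, log2 value -1.70). Without aorta LYVE1+ library 3 the value was -3.56. In fat Tgfbr2, a receptor chain for TGF-beta, was higher in LYVE1+ cells (653.7 ± 176 against 331.4 ± 98.7 CPM, 0.98, SE 0.235, adjusted p = 0.0351, edgeR), a call lost in 10 of 12 fits that left out 1 library.

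Il12b (chromosome 11, 44400063 to 44414033) was at or near 0 in the LYVE1+ cells of both tissues. The aorta LYVE1+ libraries held 1 count in all, against 388 counts in the aorta LYVE1- libraries, at 10.83, 4.21 and 6.19 CPM. This was a ratio of 301, with a counting interval of 53.8 to 11900 (adjusted p = 0.00741, edgeR). The call was lost without aorta LYVE1- library 1 (0.0519, the highest of the fits that left out 1 library, from 0.00182). The fat LYVE1+ libraries held 0 counts and the fat LYVE1- libraries 56 counts, at 3.58, 1.37 and 1.39 CPM. Set against 3 counts over the whole LYVE1+ group, the level in fat was at least 17.7-fold lower (adjusted p = 0.0085, edgeR). Leaving out any 1 library kept the fat call (0.00835 to 0.0406), and a fit of the fat libraries alone gave an adjusted p of 0.0754. These intervals and floors cover counting error only. In the IL-12 family list, 16 of 19 genes were tested. Beside Il12b the call was Ebi3, a subunit of IL-27, at 27.45, 27.12 and 27.92 CPM in fat LYVE1+ and 48.88, 55.15 and 48.78 CPM in fat LYVE1- libraries (-0.89, SE 0.126, adjusted p = 0.00182, edgeR), called in every alternative.

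A list of 29 other cytokines of macrophages, 17 of them tested, had no call in the aorta and 1 in fat: Spp1, which encodes osteopontin, at 1.364 ± 0.95 CPM in LYVE1+ and 13.55 ± 10.8 CPM in LYVE1- cells (-3.38, SE 0.735, adjusted p = 0.0217, edgeR). It was lost without fat LYVE1+ library 2 (0.0946) or 3 (0.099) or fat LYVE1- library 1 (0.0746, log2 value -2.51), and in a fit of the fat libraries alone (0.087).

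Some markers of other cells differed between the sorts. The sum of 11 monocyte markers was 164 to 325 (LYVE1+) against 591 to 1900 CPM (LYVE1-) among aortic libraries and 251 to 1110 against 1730 to 3460 CPM among fat libraries, with 1 marker called lower in the aorta and 3 in fat. These were Ccr2 in both tissues (adjusted p = 0.00198 and 0.00237, edgeR) and Ms4a4c (0.0384) and Cx3cr1 (0.00158) in fat. Fn1, a large part of the LYVE1- sums, spanned 201 to 1260 CPM (aorta LYVE1-) and 845 to 2400 CPM (fat LYVE1-). It was called in neither tissue (0.125 and 0.194, edgeR). Plac8 went the other way in fat, at 21.6 to 26.2 against 7.48 to 17.3 CPM, and was not called (0.266, edgeR). For 15 dendritic cell markers the sums were 892 to 940 against 841 to 1040 CPM (aorta, 2 markers lower) and 1350 to 1460 against 795 to 949 CPM (fat, 3 higher and 1 lower). The markers did not move alike. Clec9a, of conventional dendritic cells, was at 0 in all 3 aorta LYVE1+ libraries against 1.64 to 8.63 CPM in LYVE1-, and in fat at 0.0831 to 0.679 against 1.19 to 5.31 CPM. Ccl22 had 0 to 0.704 against 9.97 to 22 CPM (aorta) and 0 to 0.99 against 11.3 to 28.7 CPM (fat). Clec9a (adjusted p = 0.0316 in the aorta, edgeR) and Ccl22 (0.0316 in the aorta and 0.00635 in fat, edgeR) were the markers called lower. Cd209a (0.0301), Clec10a (0.0206) and Siglech (0.000789) were called higher in the LYVE1+ cells of fat (edgeR). Flt3 had 0 to 3.18 against 2.35 to 12.9 CPM (aorta) and 0 to 7.92 against 2.88 to 16.8 CPM (fat), and Zbtb46 had 20.7 to 30.9 against 32.1 to 42.3 CPM and 24 to 35.9 against 20.4 to 31.2 CPM, neither of them called. Among aortic libraries, 8 eosinophil markers summed to 5.05 to 5.47 against 47.1 to 147 CPM and 9 mast cell markers to 2.7 to 16.3 against 52.2 to 82.8 CPM. Among fat libraries these sums were 8.73 to 101 against 140 to 369 CPM and 3.88 to 56.6 against 11 to 22.1 CPM. Ear2 (2.62 to 59.4 against 129 to 346 CPM) made up most of the eosinophil sum of fat LYVE1- libraries. Epx had no counts in fat, and Prg2 stayed at or below 0.594 CPM. The fat peaks of Ccr3 (24.2 CPM) and Il5ra (10.5 CPM) were in LYVE1+ cells, and that of Siglecf (10.2 CPM) was in LYVE1- cells. Of the 6 eosinophil markers tested, none was called between the fat sorts and 2 were called lower in the aorta. The sum of 11 neutrophil markers was 476 to 576 against 503 to 661 CPM (aorta) and 617 to 691 against 258 to 502 CPM (fat), most of it from Mmp9 (211 to 639 CPM over all libraries) and Csf3r (30.4 to 75.9 CPM). Among the others of that list, Retnlg reached 19.2 CPM and was at 0 in 1 library, Cxcr2 reached 5.82 CPM and was at 0 in 8, Ly6g was at 0 in all 12 and S100a9 in 11. None of the 4 neutrophil markers tested was called between the sorts. The part of these cells in the differences above was not tested, and in bulk samples fewer cells of a type and less RNA per cell cannot be told apart.

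The same libraries were the highest for most members. Aorta LYVE1+ library 3 was the highest of its group for 10 of 10 members, aorta LYVE1- library 1 for 9 of 10, fat LYVE1- library 1 for 8 of 10 and fat LYVE1+ library 1 for 7 of the 9 members with a count there. Among the aortic libraries with the RHH prefix, the lone LYVE1+ library was below all 3 LYVE1- libraries for Il1b, Il1rn, Ptgs2 and Il12b, and above at least 1 of them for the other 6 members. With the prefix in the model no member was called in the aorta, and the log2 fold changes of Il1a, Tnf, Il6 and Il10 were positive (0.16, 0.67, 0.46 and 0.43). In that model the aortic values set aorta LYVE1+ library 3 alone against the aorta LYVE1- libraries. Without aorta LYVE1+ library 3 and aorta LYVE1- library 1, an alternative chosen after seeing the data, no member was called in the aorta either, and Il12b had an adjusted p of 0.161 (edgeR). Sums over 21 immediate early and dissociation stress genes were 20100 and 21000 CPM in the fat libraries numbered 1 and 29300 to 39400 CPM elsewhere. Of these genes 1 was called lower in LYVE1+ cells in the aorta and 2 in fat, with Egr2 in both (adjusted p = 0.00574 and 0.03, edgeR).

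**Figure D2:**
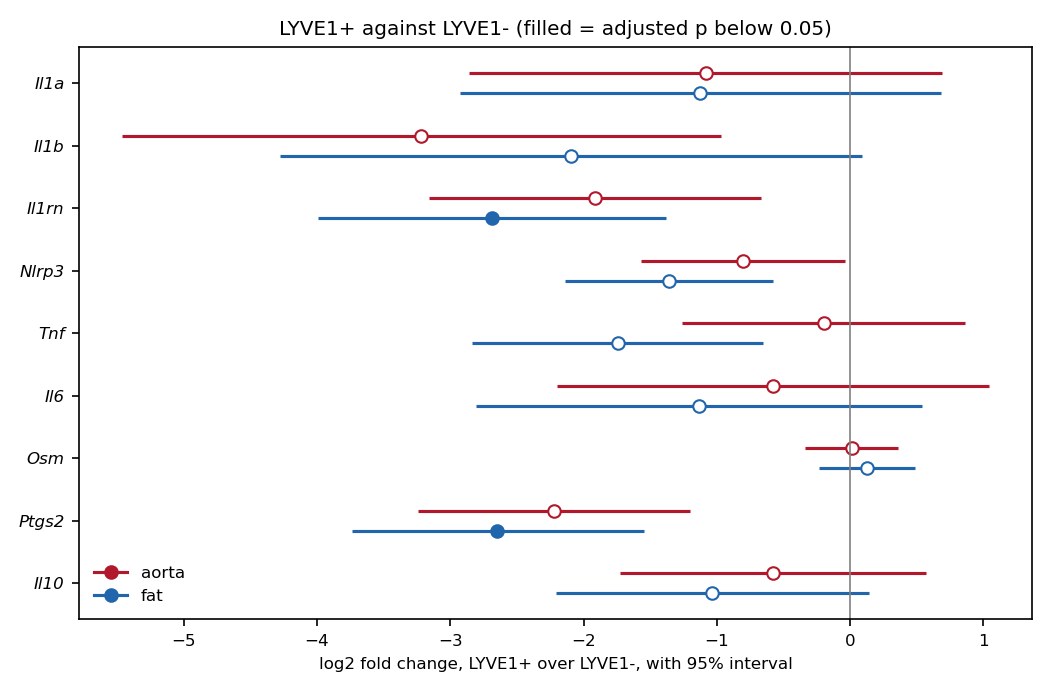
Log2 fold change of LYVE1+ over LYVE1- cells for 9 members in the aorta (red) and in fat (blue), as points with 95% intervals from the edgeR fit; filled points have an adjusted p below 0.05. Il12b is left out because its LYVE1+ groups hold 1 and 0 counts. Il1rn and Ptgs2 in fat are the filled points, and the intervals of Osm include 0 in both tissues.

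Counted by overlap, 4 of 10 members lay lower in every aorta LYVE1+ library than in every aorta LYVE1- library (Il1b, Il1rn, Ptgs2 and Il12b), where 11.3% of all genes tested did. In fat 8 of 10 did, all but Il1b and Osm, where 9.83% of all genes did. Il12b, which passed the filter only through LYVE1- libraries, is counted in both tissues. Whether the LYVE1 difference itself varied between the tissues was tested as an interaction. No member was called, and 0.155% of all genes were. The member with an unadjusted p under 0.05 was Tnf, whose log2 fold change was 1.55 higher in the aorta than in fat (SE 0.7, unadjusted p = 0.0457, adjusted p = 0.808, edgeR), where 6.06% of all genes had such a p. DESeq2 called none of the 8 members to which it gave an adjusted p. Il12b was fitted and not called, but its value is not given, since both LYVE1+ groups are at or under the floor of 3 counts.

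Aorta and fat were then compared within each sort. In LYVE1+ cells 3 of the 10 members were called higher in the aorta (Osm, Tnf and Ptgs2), against 1.88% of all genes tested, and none was lower, against 1.12%. In LYVE1- cells Osm was called higher in the aorta, against 1.66% of all genes, and none was lower, against 0.823%. Levels in the aorta exceeded fat in every library for Il1rn, Tnf, Osm and Ptgs2 in LYVE1+ cells (11.3% of all genes) and for Osm, Ptgs2 and Il12b in LYVE1- cells (11.2%). In LYVE1- cells the prefix differs between the tissues for all libraries, so tissue and prefix cannot be told apart there except through the aorta LYVE1+ libraries.

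Osm was 3-fold higher in aorta LYVE1+ cells (184.2 ± 36 against 61.38 ± 5.66 CPM, log2 fold change 1.58, SE 0.169, adjusted p = 0.000612, edgeR) and 3.25-fold higher in aorta LYVE1- cells (182.7 ± 13 against 56.18 ± 8.79 CPM, 1.70, SE 0.169, adjusted p = 0.000248, edgeR). Both calls held without each of the 12 libraries, with adjusted p of at most 0.00533. With the prefix in the model the value was 1.42 in LYVE1+ cells (adjusted p = 0.00311, edgeR) and 1.26 in LYVE1- cells (adjusted p = 0.369, edgeR). Tnf was 5.96-fold higher in aorta LYVE1+ cells (658 ± 484 against 110.8 ± 49.9 CPM, 2.58, SE 0.522, adjusted p = 0.0209, edgeR). That call was lost without aorta LYVE1+ library 3 (0.0755) or fat LYVE1+ library 2 (0.0887) or 3 (0.0855), with the prefix in the model (0.0749), in a fit of the 2 LYVE1+ groups alone (0.0564) and without aorta LYVE1+ library 3 and aorta LYVE1- library 1 (0.0848). The log2 value ranged from 1.82, without aorta LYVE1+ library 3, to 3, without fat LYVE1+ library 1. In LYVE1- cells Tnf was at 754.6 ± 284 against 370.1 ± 159 CPM (1.03, SE 0.496, adjusted p = 0.353, edgeR).

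Ptgs2 was 4.03-fold higher in aorta LYVE1+ than in fat LYVE1+ cells (45.53 ± 20.1 against 11.77 ± 6.94 CPM, log2 fold change 2.01, SE 0.499, adjusted p = 0.0486, edgeR). The call was lost in 9 of the 12 fits that left out 1 library (adjusted p 0.0169 to 0.182). It was also lost with RLE size factors (0.0526), plain library sizes (0.0547) and the prefix in the model (0.179). A fit of the 2 LYVE1+ groups alone gave 0.0641, and one without aorta LYVE1+ library 3 and aorta LYVE1- library 1 gave 0.145. In LYVE1- cells the ratio was 2.99 (1.58, SE 0.464, adjusted p = 0.101, edgeR). Il1rn was at 88.33 ± 38.9 against 31.26 ± 25.6 CPM in LYVE1+ cells (1.53, SE 0.585, adjusted p = 0.217, edgeR), and Il12b at 7.078 ± 3.4 against 2.117 ± 1.27 CPM in LYVE1- cells (1.75, SE 0.695, adjusted p = 0.254, edgeR). For Il1a, Il1b, Nlrp3, Il6 and Il10 the 95% intervals of the tissue ratio included 1 in both sorts. The sum of 8 fibroblast markers spanned 860 to 2610 CPM (aorta) against 426 to 1040 CPM (fat), that of 6 smooth muscle markers 29.7 to 83.4 against 10.1 to 26.1 CPM and that of 8 adipocyte markers 112 to 167 against 182 to 421 CPM, with 3 adipocyte markers called lower in the aorta in LYVE1+ and 4 in LYVE1- cells. Of the 21 immediate early and dissociation stress genes, 3 were called higher and 2 lower in the aorta in each sort. The heat shock gene Hspa1a spanned 1170 to 1980 CPM over aortic against 133 to 429 CPM over fat libraries (adjusted p = 0.0132 in LYVE1+ and 0.0201 in LYVE1- cells, edgeR), Hspa1b 39.6 to 51.9 against 1.55 to 5.95 CPM (3.81e-06 and 3.27e-05, edgeR) and the immediate early gene Egr2 36.1 to 106 against 200 to 361 CPM (1.21e-05 and 6e-05, edgeR). The part of these genes in these differences was not tested.

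**Figure D3:**
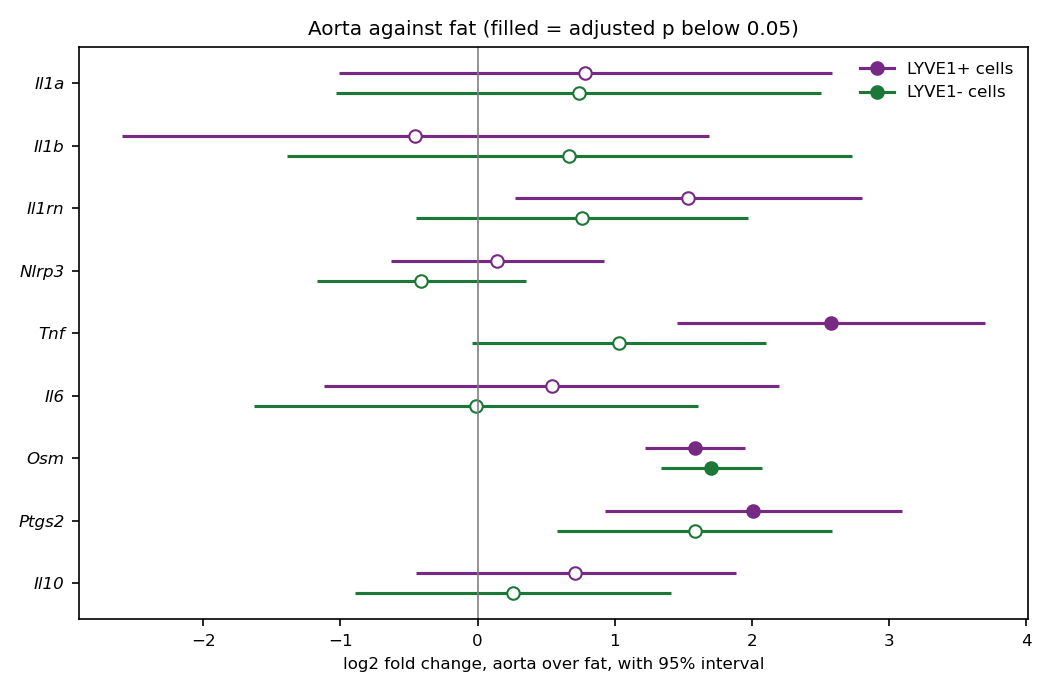
Log2 fold change of aorta over fat for 9 members in LYVE1+ cells (purple) and LYVE1- cells (green), as points with 95% intervals from the edgeR fit; filled points have an adjusted p below 0.05. Il12b is left out because its LYVE1+ groups hold 1 and 0 counts. Osm has the narrowest intervals and is filled in both sorts, and Tnf and Ptgs2 are filled in LYVE1+ cells.

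Beside the members, the tissue comparisons called genes of the same lists in both directions. Ikbke, an NF-kB pathway kinase, was lower in the aorta in LYVE1+ cells (14.89 ± 3.73 against 43.13 ± 6.7 CPM, log2 fold change -1.54, SE 0.234, adjusted p = 0.0042, edgeR) and in LYVE1- cells (15.95 ± 2.05 against 58.4 ± 15.1 CPM, -1.87, SE 0.233, adjusted p = 0.00142, edgeR). The NF-kB list had 2 genes higher and 2 lower in the aorta in each sort. Those higher were Nfkbib and Tank in LYVE1+ cells and Nfkbib and Bcl3 in LYVE1- cells. Nfkbid, a nuclear inhibitor protein of NF-kB, was lower as well, at 193.7 ± 8.89 against 434.4 ± 121 CPM in LYVE1+ cells (adjusted p = 0.00831, edgeR) and 258.7 ± 12.1 against 540.9 ± 123 CPM in LYVE1- cells (adjusted p = 0.0155, edgeR). The LYVE1- call of Nfkbid was lost without any 1 aorta LYVE1- library (0.0696, 0.0573 and 0.0593). Retnla, a secreted product of alternatively activated macrophages, was 4.79-fold lower in aorta LYVE1+ cells (1416 ± 223 against 6779 ± 1330 CPM, adjusted p = 0.000172, edgeR) and 2.17-fold lower in aorta LYVE1- cells (adjusted p = 0.00905, edgeR), where the call was lost without aorta LYVE1- library 2 (0.057) or fat LYVE1- library 3 (0.0593). Hpgds was higher in the aorta in LYVE1+ (272.9 ± 22.6 against 121.7 ± 49.6 CPM, adjusted p = 0.0324, edgeR) and LYVE1- cells (217.3 ± 32.3 against 58.84 ± 7.89 CPM, adjusted p = 0.00321, edgeR). Its LYVE1+ call was lost in 7 of the 12 fits that left out 1 library (up to 0.101) and with the prefix in the model (0.0709). With the prefix in the model the LYVE1- adjusted p was 0.239 for Ikbke, 0.63 for Nfkbid, 0.76 for Retnla and 0.466 for Hpgds.

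Ifnb1, which encodes interferon beta, had 53.41, 9.019 and 117 CPM in aorta LYVE1+ and 3.071, 1.473 and 3.024 CPM in fat LYVE1+ libraries (log2 fold change 4.61, SE 0.873, adjusted p = 0.0135, edgeR). The aortic libraries differed more than 10-fold among themselves, and the call was lost without fat LYVE1+ library 2 (0.0745) or 3 (0.0604) and without aorta LYVE1+ library 3 and aorta LYVE1- library 1 (0.0547). Without aorta LYVE1+ library 3 alone the log2 value was 3.68. Myd88, the adaptor of the IL-1 receptor, was lower in the aorta in both sorts (1.54-fold, adjusted p = 0.0236, and 1.6-fold, adjusted p = 0.0161, edgeR), each lost in 5 of 12 fits that left out 1 library. Further calls in LYVE1- cells were higher levels in the aorta for Rhbdf2 (94.28 ± 9.32 against 40.67 ± 10.5 CPM, adjusted p = 0.0189, edgeR), which takes part in the release of TNF, and lower levels for Irf1 (337.4 ± 35.8 against 599.6 ± 49.8 CPM, adjusted p = 0.0107, edgeR), an interferon-response factor, and Pycard (59.09 ± 10.8 against 98 ± 14.4 CPM, adjusted p = 0.036, edgeR), the inflammasome adaptor. Irf1 was lost in 1, Rhbdf2 in 4 and Pycard in 9 of the 12 fits that left out 1 library. With the prefix in the model the LYVE1- calls ended for Irf1 (0.48), Rhbdf2 (0.901, log2 value 0.47 in place of 1.22), Pycard (0.62) and Myd88 (0.519). The TGF-beta receptor chain Tgfbr1 was higher in the aorta in LYVE1+ cells (64.15 ± 11.3 against 29.7 ± 5.59 CPM, adjusted p = 0.0338, edgeR, lost in 4 of 12 fits that left out 1 library) and in LYVE1- cells (112.7 ± 44.8 against 53.46 ± 6.71 CPM, adjusted p = 0.0422, edgeR, lost in 8). The IL-4 receptor chain Il4ra (565.5 ± 52.4 against 326.1 ± 24 CPM, adjusted p = 0.0298, edgeR, lost in 7) and Birc3, which encodes the inhibitor of apoptosis cIAP2 (477.2 ± 38.4 against 287.5 ± 28.2 CPM, adjusted p = 0.0354, edgeR, lost in 8), were higher in aorta LYVE1- cells. Il1rl1 was lower there (45.35 ± 3.83 against 73.85 ± 3.43 CPM, adjusted p = 0.0449, edgeR, lost in 10). With the prefix in the model these LYVE1- calls ended as well (0.556 for Tgfbr1, 0.942 for Il4ra, 0.859 for Birc3 and 0.828 for Il1rl1). In LYVE1+ cells Ebi3 was higher in the aorta (40.19 ± 2.22 against 27.5 ± 0.4 CPM, adjusted p = 0.0359, edgeR, lost in 10). The leukotriene B4 receptor gene Ltb4r1 was lower in aorta LYVE1+ cells, with 0, 10 and 2 counts (0, 0.7516 and 0.1423 CPM) against 24.57, 2.513 and 5.04 CPM in fat LYVE1+ libraries (adjusted p = 0.03, edgeR). It was lost without aorta LYVE1+ library 1 (0.102) or 3 (0.124) or fat LYVE1+ library 1 (0.0599), and with the prefix in the model (0.12), as Ebi3 was (0.122).

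Over the 9 lists, 178 genes other than the members were tested. Of these 1.69% were called between the aortic sorts (0 higher and 3 lower in LYVE1+ cells), 5.06% between the fat sorts (5 higher and 4 lower), none in the interaction, 6.18% between tissues in LYVE1+ cells (6 higher and 5 lower in the aorta) and 8.43% in LYVE1- cells (8 higher and 7 lower). Among all genes tested the shares were 0.542%, 3.93%, 0.155%, 3% and 2.48%.

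**Figure D4:**
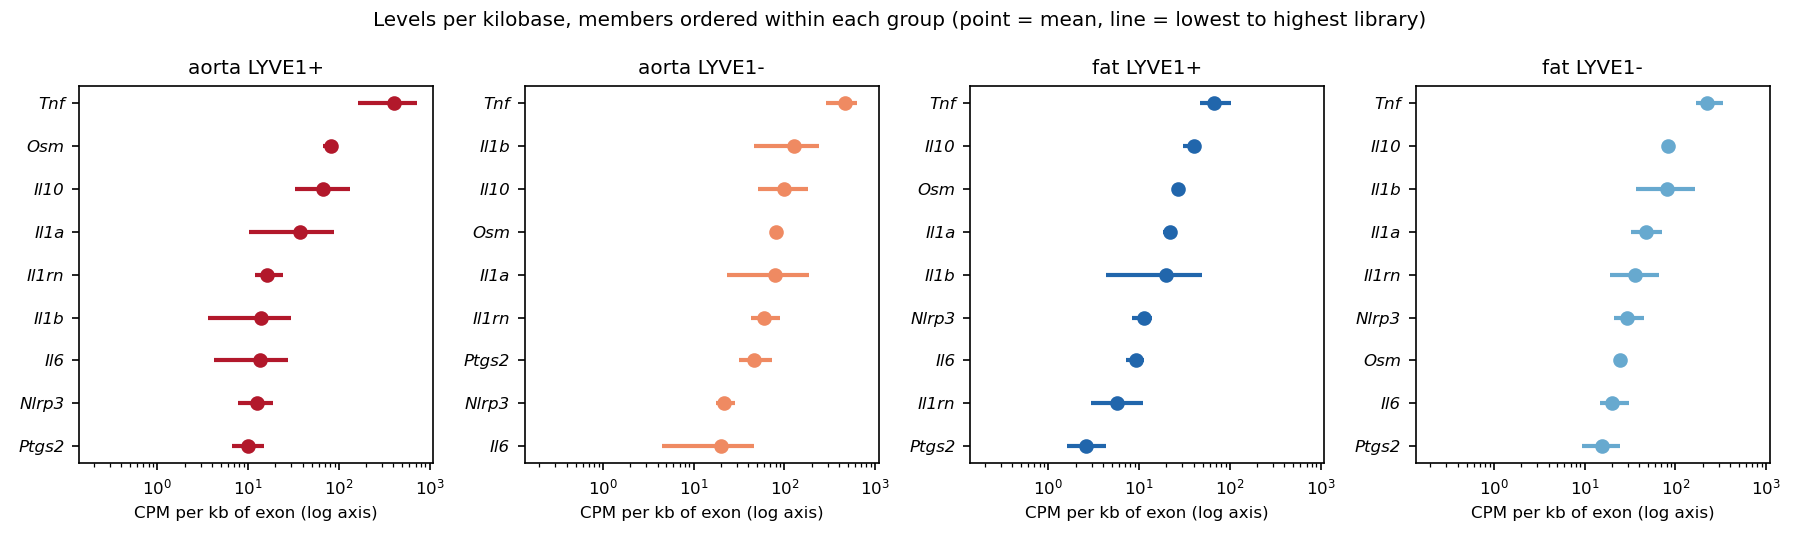
Mean level of 9 members in CPM per kilobase of annotated exon in each of the 4 groups, on a log axis, with a line from the lowest to the highest of 3 libraries and genes ordered by mean. Tnf is at the top in every group. Il12b, which has the lowest mean in each, is left out because its LYVE1+ levels are at or near 0.

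Between genes, levels were compared per kilobase of annotated exon. Tnf had the highest mean in each group, at 401.4 ± 295 CPM per kb in aorta LYVE1+, 460.4 ± 173 in aorta LYVE1-, 67.6 ± 30.5 in fat LYVE1+ and 225.8 ± 96.9 in fat LYVE1- cells. It did not overlap the member next by mean in any group. In fat LYVE1+ cells it did overlap Il1b, which reached 48.82 CPM per kb against 46.95 in the lowest Tnf library. Il12b had the lowest mean in each, at 3.598 ± 1.73 CPM per kb in aorta LYVE1- and 1.076 ± 0.645 in fat LYVE1- cells. In aorta LYVE1+ cells the order from the top was Tnf, Osm, Il10, Il1a, Il1rn, Il1b, Il6, Nlrp3, Ptgs2 and Il12b, and neighbours from Osm to Ptgs2 overlapped. In aorta LYVE1- cells it was Tnf, Il1b, Il10, Osm, Il1a, Il1rn, Ptgs2, Nlrp3, Il6 and Il12b. Neighbours there overlapped except Tnf with Il1b and Ptgs2 with Nlrp3. Il6, below Nlrp3 by mean, reached 46.74 CPM per kb, above the lowest Ptgs2 library (31.8).

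In fat LYVE1+ cells the order was Tnf, Il10, Osm, Il1a, Il1b, Nlrp3, Il6, Il1rn, Ptgs2 and Il12b, and in fat LYVE1- cells Tnf, Il10, Il1b, Il1a, Il1rn, Nlrp3, Osm, Il6, Ptgs2 and Il12b. Neighbours overlapped in fat LYVE1+ cells from Osm to Ptgs2 and in fat LYVE1- cells from Il10 to Ptgs2. Il1b ranked 6 in aorta LYVE1+ and 2 in aorta LYVE1- cells, and 5 and 3 in fat. Osm ranked 2 and 4 in the aorta and 3 and 7 in fat. Il1rn has 5.54 kb of annotated exon and a longest transcript of 2.55 kb. With the longest transcript as the length, 9 of 180 pairs of members changed order.

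Ratios between members, taken per kilobase within each library, were examined after the levels were seen. The ratio of Il1a to Il1b was 2.85, 1.65 and 2.96 in aorta LYVE1+ and 0.766, 0.504 and 0.299 in aorta LYVE1- libraries, with no overlap. An exact two-sided permutation test gave p = 0.1, the smallest that 3 against 3 libraries allow. In fat the LYVE1+ libraries had 0.538, 4.78 and 3.23 and the LYVE1- libraries 0.424, 0.874 and 0.998 (exact permutation p = 0.3). The ratio of Tnf to Il1b was 19.9 to 85.4 in aorta LYVE1+ and 2.61 to 10 in aorta LYVE1- libraries (exact permutation p = 0.1), and 2.1 to 10.8 against 2.03 to 4.65 in fat. The ratio of the antagonist Il1rn to Il1b was 0.805 to 3.29 against 0.368 to 0.941 in aortic cells (exact permutation p = 0.2) and 0.225 to 0.696 against 0.395 to 0.592 in fat (exact permutation p = 0.9). Of 12 such tests over 3 ratios none could pass 0.05.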

How the data were processed

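Smart-seq2 libraries from 2 ng of total RNA were sequenced with paired reads of 51 cycles, per the labels' protocols. The deposited table holds raw counts for 46517 genes in 12 libraries, and the second deposited table holds log2 CPM, which equalled edgeR's log2 CPM (TMM, prior count 0.25) to within 4.97e-14 and was used for that check alone. STAR 2.5.2b, featureCounts 1.5.0, edgeR 3.14.0 and GRCm38 are the tools and build per the submitters' processing notes. Annotation release, strand setting and treatment of multiply mapped reads are not given in the sources used here. Symbols were matched by Ensembl identifier for 46005 genes, locations and exon lengths came from GENCODE M21 (GRCm38), and promoters from RefSeq.

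One edgeR 4.0.16 quasi-likelihood model (R 4.3.3) took the counts of all 12 libraries, with a mean for each group, filterByExpr, TMM scaling, 8 residual degrees of freedom, two-sided tests and Benjamini-Hochberg adjustment over 14216 genes, called below 0.05. Each SE was derived from the log2 fold change and its F statistic. The script was tested on simulated data. Totals of 5049936 to 29792301 counts set the precision. Alternatives were RLE factors, plain library sizes, DESeq2 1.42.0, no filter, the replicate number as a block, the identifier prefix as a term, only the compared groups, each library left out, both fat libraries numbered 1 left out and, chosen after seeing the data, aorta LYVE1+ library 3 and aorta LYVE1- library 1 left out.

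The labels do not state that the numbers pair the libraries. The main model took no pairing in either tissue, and the number as a block was an alternative. In fat, same-numbered LYVE1+ and LYVE1- libraries deviated together (correlations 0.49, 0.28 and 0.18). Differently numbered fat libraries 2 and 3 had correlations of 0.22 and 0.19, and those of library 1 with 2 or 3 were -0.37 to -0.27. These values therefore set library 1 apart but do not show that 2 and 3 are paired by number. In the aorta same-numbered libraries did not deviate together (-0.04, -0.08 and -0.17). The members and gene lists were chosen with earlier results of these data known. Named were all 10 members and, from each of 9 lists, up to 4 called genes with the smallest adjusted p per LYVE1 comparison and up to 2 per other comparison, or the 2 most abundant genes of a list without a call. Nfkbib, Tank and Bcl3 and the ratios between members were chosen after their values were seen.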

Additional observations from a re-analysis of the deposited data

How the results depend on the processing

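Direction and call of the members were compared over all settings named in the processing. The library prefix as a term and the omission of aorta LYVE1+ library 3 with aorta LYVE1- library 1 or of both fat libraries numbered 1 are given here by those names. In the aorta 1 member was called in LYVE1+ against LYVE1- cells. DESeq2 called 2, no filter 4, the replicate block 3, the prefix term 0, the 2 aortic groups alone 3, omission of the fat pair 4 and of the aortic pair 0. In fat, in place of 3, DESeq2 gave 4, no filter 6, the replicate block 5, the prefix term 5, the 2 fat groups alone 2 and omission of the aortic pair 6. Between tissues in LYVE1+ cells, in place of 3, the prefix term, the 2 groups alone and omission of the aortic pair each gave 1. RLE factors and plain library sizes each gave 2 there, and no filter and omission of the fat pair each gave 4. In LYVE1- cells, in place of 1, no filter gave 2, the prefix term 0 and omission of the fat pair 3. With 1 library left out at a time the counts were 0 to 2 (aorta), 1 to 6 (fat), 1 to 4 (tissues, LYVE1+) and 1 to 2 (tissues, LYVE1-).

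Over all genes, 77 were called in the aorta. Not every setting is listed for these counts. Other settings gave 360 with DESeq2, 336 with no filter, 243 with the replicate block, 2 with the prefix term, 294 with the 2 groups alone, 566 without the fat pair, 6 without the aortic pair and 23 to 210 with 1 library left out. In fat, in place of 558, the counts were 1013 (DESeq2), 915 (replicate block), 206 (2 groups alone), 887 (without the fat pair) and 219 to 1025 (1 library left out). For the difference between tissues in the LYVE1 effect, in place of 22, they were 100 (DESeq2), 72 (no filter), 0 (prefix term), 84 (without the fat pair), 0 (without the aortic pair) and 0 to 47. Between tissues in LYVE1+ cells, in place of 426, they were 922, 820, 181, 243 (2 groups alone), 890, 154 and 172 to 538 in the same order. In LYVE1- cells, in place of 353, they were 847, 647, 7, 1024, 108 and 98 to 531.

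The replicate block in the aorta, where same-numbered libraries did not deviate together, gave adjusted p of 0.0122 for Il1rn and 0.00901 for Ptgs2 (edgeR). No paired analysis was possible for the tissue comparisons because the numbers are nested within tissues.

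Log2 fold changes that reversed were these. In the aorta the prefix term gave 0.159 for Il1a, 0.668 for Tnf, 0.458 for Il6 and 0.434 for Il10, and Osm was -0.004 with the replicate block and -0.208 without the aortic pair. In the difference between tissues Il1a was -0.204 without the fat pair and -0.001 without the aortic pair, and Osm 0.16 with the prefix term. Between tissues in LYVE1+ cells Il1a, Nlrp3, Il6 and Il10 were -0.868, -0.27, -0.525 and -0.311 with the prefix term and -0.858, -0.261, -0.519 and -0.304 without the aortic pair, and Il1b was 1.458 without the fat pair. In LYVE1- cells the prefix term gave -2.154 for Il1a, -1.683 for Il1b, -0.256 for Il1rn, -0.601 for Tnf, -1.779 for Il10 and -1.381 for Il12b. Without the aortic pair Il1a, Il1b and Il10 were -0.857, -0.171 and -0.531 there. Nlrp3 was 0.042 without the fat pair, and Il6 was 0.016 with plain library sizes, 0.001 with DESeq2, 0.005 with no filter and 0.412 without the fat pair. Between tissues in LYVE1+ cells the prefix term and omission of the aortic pair are not separate checks. Both compare aorta LYVE1+ libraries 1 and 2 with the fat LYVE1+ libraries. The cause of these changes was not tested.

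Leaving out 1 library at a time gave these ranges for values that reversed. In the aorta they were -2.729 to 0.513 (Il1a), -0.958 to 0.179 (Tnf), -1.644 to 0.969 (Il6), -0.148 to 0.134 (Osm) and -1.597 to 0.212 (Il10). In the difference between tissues they were -1.604 to 1.639 (Il1a), -2.363 to 0.789 (Il1b), -0.016 to 1.657 (Il1rn), -0.514 to 2.099 (Il6), -0.28 to 0.003 (Osm), -0.055 to 0.967 (Ptgs2) and -0.566 to 1.243 (Il10). Between tissues in LYVE1+ cells they were -0.865 to 1.239 (Il1a), -1.692 to 1.459 (Il1b), -0.268 to 0.395 (Nlrp3), -0.523 to 0.966 (Il6) and -0.309 to 1.046 (Il10). In LYVE1- cells they were -0.855 to 1.183 (Il1a), -0.165 to 1.739 (Il1b), -0.642 to 0.042 (Nlrp3), -1.556 to 0.465 (Il6) and -0.531 to 0.571 (Il10). Ranked per kilobase with the longest transcript as the length, 9 of 180 pairs of members changed order. Osm between tissues in LYVE1+ cells was the 1 call of 8 among members that stood in every setting run. Depth limits Il12b, whose LYVE1+ groups held 1 and 0 counts.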
